A study of Homo sapiens
Mus musculus and Homo sapiens with 21 samples.

Results

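The mouse RNA of hindbrain pieces that held a human lung adenocarcinoma metastasis was compared with the mouse RNA of hindbrain pieces without tumour. The 7 libraries were chosen by their titles, 3 named HBMet and 4 named HB, out of 21 libraries in the series, and only values of the mouse gene table entered the comparison. The series as a whole set the same tumour cells in monolayer culture, under the skin and in the brain side by side, and followed the brain's own expression around the metastases. All mice were athymic nu/nu animals, which lack a thymus, and recipients of cells were 5 to 6 weeks old at injection. Tumour cells were H2030-BrM3, a brain-metastatic derivative of the H2030 lung adenocarcinoma line, and brain metastases were seeded by injection into the heart. Tumour tissue was dissected by eye together with the stroma around it, so each tumour-bearing piece holds tumour cells, the tissue next to them and more distant hindbrain in unstated proportions. The tumour-free libraries carry the same strain label and, although they held no tumour, the same cell line label. The labels used here do not say whether the tumour-free mice were injected, how many animals gave the pieces, their sex or their age at dissection, so p-values measure the spread between these libraries and may not measure that between animals.

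The hindbrain is made of the cerebellum, pons and medulla. Its neurons include the small granule cells and the large Purkinje cells of the cerebellar cortex, and HOX genes mark its caudal segments. Microglia are the resident macrophages of the brain. They carry a set of surveillance genes at rest and switch on phagocytic, lysosomal and lipid-handling genes near damage, amyloid, demyelination or tumour. Astrocytes, the glia that clear glutamate and contact vessels, answer the same insults by raising filament proteins such as Gfap and secreted defence proteins, partly through STAT3 signalling. In RNA from whole tissue pieces, fewer cells of a type and less RNA per cell cannot be told apart.

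Levels are RPKM (reads per kilobase of transcript, scaled to the reads assigned to mouse genes) of the mouse genes, rescaled to a sum of 1000000 per library, and are called rescaled RPKM. Differences are log2(rescaled RPKM + 1), tumour-bearing minus tumour-free, with the standard error (SE), which understates the change of genes near or under 1. Genes were tested with limma in 1 fit over the 14 brain libraries, forebrain included, and called at an adjusted p under 0.05.

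The tissue labels held up against region markers. Gabra6, a GABA receptor subunit of granule cells, was at 79.6 to 216 in the 7 hindbrain libraries and at 0.0386 to 0.134 in the 7 forebrain libraries, and HOX genes summed to 56.1 to 173 against 0.0855 to 0.282. Human reads were 5.489% to 7.52% of the tumour-bearing hindbrain libraries and 0.01732% to 0.02496% of the tumour-free ones. Mouse reads numbered 52358082 to 86139353 with tumour and 19338017 to 23034782 without, so depth and tumour status cannot be told apart. Replicate 1 of tumour-free hindbrain differed from the other 3 in markers of region and activity. On the first principal component of all tested genes (36.8% of hindbrain variance) it was at -1.353, the others at -22.91 to -13.74. The tumour-bearing libraries were at 11.28 to 27.1. In read counts of all genes, replicates 1 and 4 were the closest tumour-free pair (chi-square per degree of freedom 11.23). Replicates 2 and 3 were the most distant (27.8). Replicate 1 had the highest summed Purkinje cell markers (12000 against 5830 to 7890) and the lowest summed immediate early genes (114 against 368 to 424). Tbr1, a transcription factor of forebrain neurons, was at 0.404 in it and at 9.88, 13.4 and 6.51 in replicates 2, 3 and 4, while the tumour-bearing libraries held 0.325, 0.601 and 0.311 and tumour-free forebrain 83.8 to 122. Each count that follows was therefore also taken without that replicate.

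Of 15777 genes tested, 512 (3.25%) were called in the hindbrain, 460 of them higher (2.92%) and 52 lower (0.33%) with tumour. These shares are the background for every list count that follows. The lists were chosen with earlier results of these data known, which may raise their counts above the background. Of the gene lists in the plot of list shares, those of reactive astrocytes (20), disease-associated microglia (19), proliferation (15) and interferon-stimulated genes (14) held the most higher calls. These counts depend on list size, with 14 of 40 interferon-stimulated genes called higher and 9 of 15 immune checkpoint genes. Of all higher calls, 157 differed by 2-fold or more. Only 3 of the lower calls reached 2-fold. The median log2 difference was 0.832 among the higher calls, -0.466 among the lower calls and -0.014 over all genes. At an unadjusted p under 0.05 there were 2355 genes. The groups did not overlap for 2014 genes (12.8%), 1146 higher (7.26%) and 868 lower (5.5%) with tumour. Leaving out 1 hindbrain library at a time gave from 291 calls, without tumour-bearing replicate 2, to 804, without tumour-free replicate 1, and the last of these shared 473 with the full set.

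Increases are ranked here on the scale of the test, which adds 1 to each value and so lowers the rank of genes near 0 without tumour. Among genes averaging at least 5 in the higher group, with no overlap between groups, the largest increase was that of Ccl12, a chemokine that attracts monocytes through Ccr2. It stood at 12.9, 14 and 10.9 with tumour and at 1.24, 1.39, 1.19 and 1.86 without. The lowest tumour-bearing library was thus well above the highest tumour-free one, and the log2 difference was 2.49 (SE 0.22, limma adjusted p = 1.13e-05). Ly86, the MD-1 protein that pairs with the receptor Cd180 on myeloid and B cells, was at 46.7, 63.1 and 43 against 7.95, 9.86, 9.59 and 6.78, a 5.42-fold difference (limma adjusted p = 1.57e-06). Slc43a3, a nucleobase transporter, was at 15.3, 15.2 and 7.59 against 1.54, 1.66, 2.08 and 1.88, or 4.73-fold (limma adjusted p = 2.64e-05). In both genes the groups were far apart, although tumour-bearing replicate 3 held less Slc43a3 than replicates 1 and 2. Cd52, a small surface glycoprotein of leukocytes, was at 13.9, 14.3 and 11.1 against 2.08, 3.6, 1.56 and 2, or 4.35-fold (limma adjusted p = 4.8e-06). The other 6 of the 10 largest increases were Itgax, Top2a, Socs3, Lag3, Clec7a and Gpnmb, described with their groups. All 10 stayed called under each of the 26 alternative settings run.

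**Figure D1:**
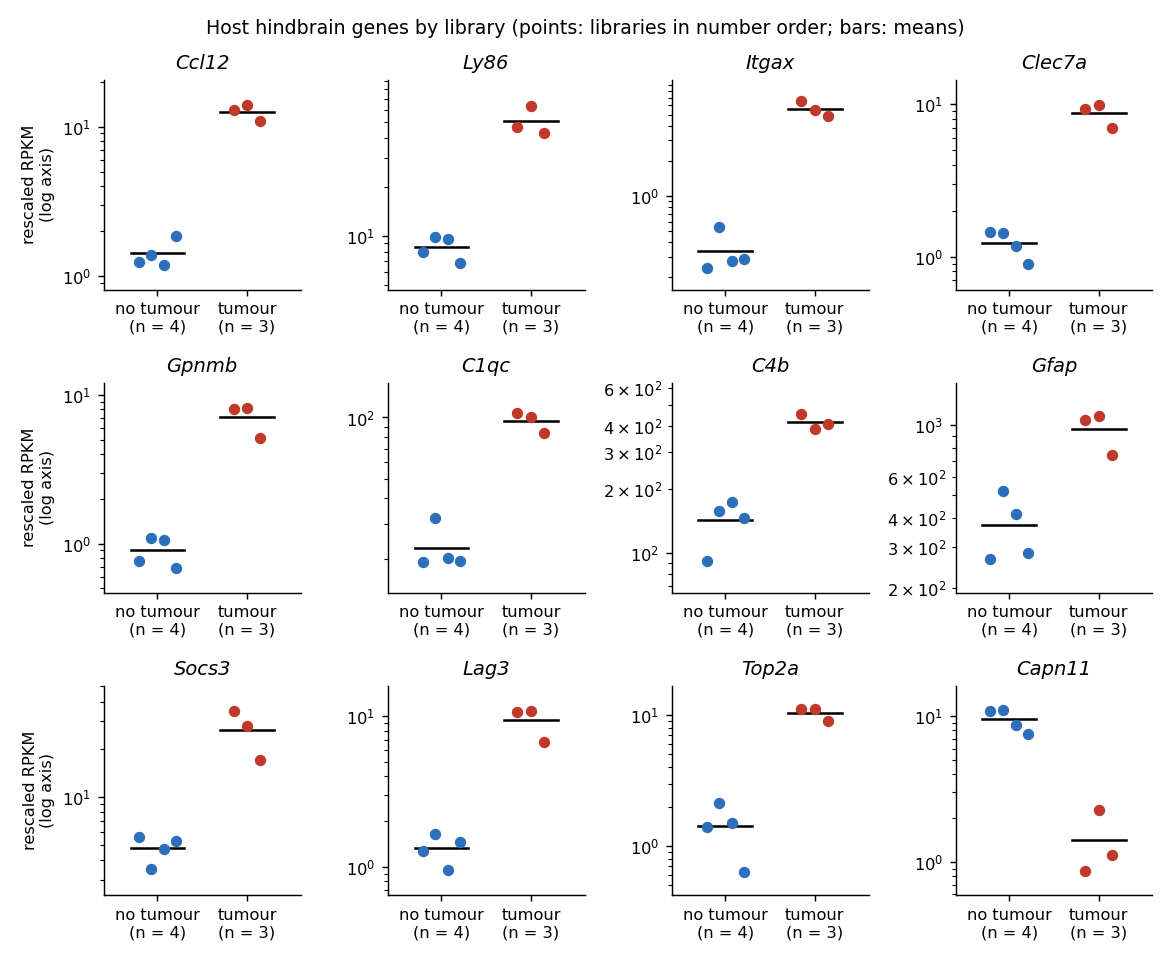
Rescaled RPKM (log axis) of 12 mouse genes in the 4 tumour-free and 3 tumour-bearing hindbrain libraries, in number order, with group means as bars. In every panel the groups do not overlap: 11 genes are higher with tumour, Ccl12 at 10.9 to 14 against 1.19 to 1.86, and Capn11 is lower, at 0.87 to 2.27 against 7.55 to 11.

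Genes of activated phagocytes rose together. Of 30 genes of the disease-associated microglia and phagocyte list, 19 rose and 0 fell, where 2.92% and 0.33% of all genes did. The list's median log2 difference was 1.00, and without tumour-free replicate 1 it had 19 calls again. Itgax, the integrin Cd11c that marks activated microglia, was at 6.5, 5.51 and 4.86 with tumour and at 0.239, 0.535, 0.275 and 0.287 without. It was close to undetected in tumour-free hindbrain and rose in each tumour-bearing library, 4.96-fold on the scale of the test (limma adjusted p = 4.71e-06). Cst7, the protease inhibitor cystatin F, had the same pattern, at 4.08, 5.07 and 3.72 against 0.0711, 0, 0 and 0.192 (4.95-fold, limma adjusted p = 1.91e-06). Clec7a, the beta-glucan receptor Dectin-1, was at 9.34, 9.9 and 6.99 against 1.46, 1.42, 1.18 and 0.89 (4.34-fold, limma adjusted p = 3.14e-06). These 3 genes are standard markers of the phagocytic microglial state.

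Trem2, a lipid-sensing receptor, was at 23.6, 22.5 and 16.6 against 6.48, 8.51, 6.55 and 5.89, and its signalling adaptor Tyrobp at 55.2, 53.7 and 47.1 against 17.7, 23.8, 14.8 and 18.1. The receptor and its adaptor rose by nearly equal amounts, 2.78-fold (limma adjusted p = 3.24e-05) and 2.73-fold (1.58e-05). By role, 9 of 12 receptors and adaptors rose, among them the Fc receptor genes Fcgr3 (log2 difference 1.70) and Fcer1g (1.62). Lysosomal and lipid genes followed with 7 of 12, the largest increase among the cathepsins being that of Ctss, from 46.7 to 68.2 up to 153 to 187. The most abundant member of the list, the lipoprotein Apoe, was at 2420, 2270 and 2120 against 1710, 2040, 1540 and 1790. Its groups did not overlap, but the log2 difference of 0.37 did not pass (limma adjusted p = 0.169). Spp1, the secreted phosphoprotein osteopontin, overlapped, at 81.7 to 114 against 62.3 to 85.1 (limma adjusted p = 0.195).

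Gpnmb, a transmembrane glycoprotein of lipid-laden phagocytes, differed between brain regions. It was at 8, 8.22 and 5.11 in tumour-bearing and 0.765, 1.09, 1.06 and 0.689 in tumour-free hindbrain, an increase of 4.21-fold (limma adjusted p = 1.91e-06). In forebrain the tumour-bearing libraries held 1.77, 1.53 and 1.31 and the tumour-free ones 0.757, 0.914, 0.926 and 0.748. The tumour-free levels of the regions were alike, and the hindbrain increase exceeded the forebrain one by 1.61 (SE 0.20) on the log2 scale (limma adjusted p = 0.00431 for the difference itself). The galectin Lgals3, often counted with Gpnmb among lipid-phagocyte genes, rose 2.94-fold in hindbrain, from 1.21 to 2.04 up to 5.4 to 7.05, with a log2 difference of 1.56 against 0.59 in forebrain. That region difference did not pass (limma adjusted p = 0.0904).

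Surveillance genes of resting microglia were also higher rather than lower. Of 18, 10 rose and 0 fell, with a median log2 difference of 0.63, and their summed level was 538 to 681 with tumour against 379 to 446 without. Cx3cr1, the fractalkine receptor, was at 34.7, 37.9 and 28 against 15.8, 16.9, 14 and 12.6 (2.18-fold, limma adjusted p = 0.000187). Csf1r, the receptor that microglia need to survive, was at 63.3, 57.8 and 46.3 against 23.6, 33.7, 26.4 and 24.1 (2.04-fold, limma adjusted p = 0.000434). Both receptor genes stood higher in every tumour-bearing library. Tmem119, a surface protein nearly restricted to microglia, was at 38.9, 37.2 and 24.7 against 15.1, 21.3, 18.1 and 18.6 (1.77-fold, limma adjusted p = 0.00755), but was no longer called without tumour-bearing replicate 1 or 2 (adjusted p from 0.000847 to 0.0629 over 26 settings). P2ry12, the ADP receptor that guides microglial processes, overlapped between groups, at 19.2 to 31.6 against 14.3 to 23.7, and did not pass (limma adjusted p = 0.164). The transcription factor Sall1 did not pass either, at 7.06 to 9.34 against 6.27 to 7.97 (limma adjusted p = 0.516). Without tumour-bearing replicate 1 or replicate 2 the count of this list fell to 6. Aif1, which encodes the general microglial and macrophage marker Iba1, was at 14.6, 14.4 and 11.2 against 4.98, 5.54, 4.14 and 4.16 (2.52-fold, limma adjusted p = 5.41e-05).

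Markers of other leukocytes were taken next. None of the 6 tested genes of border macrophages passed, and Mrc1, the mannose receptor of perivascular macrophages, was at 1.75 to 3.3 against 1.73 to 3.27. Of 8 tested monocyte genes 3 rose, all at low levels: Ccr2 at 1 to 1.37 against 0.242 to 0.542 (limma adjusted p = 0.00384), Plac8 at 1.45 to 2.44 against 0.159 to 0.757 (0.000434) and Ccr1 at 1.75 to 2.1 against 0.385 to 1.02 (0.00857). The count of the whole list of 14 was 1 without tumour-bearing replicate 2. The monocyte surface gene Ly6c2 was at 1.9 to 2.21 against 0.865 to 1.73, and the list's summed level overlapped, at 106 to 140 against 80.9 to 155. Of 5 neutrophil genes Csf3r, the G-CSF receptor, which microglia also express, was the only call, at 9.06 to 13.8 against 3.23 to 3.92, while the calprotectin gene S100a9 overlapped, at 3.14 to 16.1 against 1.96 to 9.25. Of 22 lymphocyte genes 17 were too low to test, with no value over 0.511 in any hindbrain library, and the T cell receptor chains Cd3e and Cd3g had at most 7 reads in any library. The 1 call among the other 5 was the chemokine Ccl5, at 1.18 to 1.84 against 0 to 0.631 (limma adjusted p = 0.0152), which was lost with a pseudocount of 0.1 and without tumour-bearing replicate 1 or 3 or tumour-free replicate 3 (adjusted p from 0.00575 to 0.0901 over 25 settings).

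Complement rose at its start and in its receptors. The classical pathway begins with C1q, whose 3 chains are made in the brain by microglia, and passes through C4. C1qa was at 133, 125 and 107 with tumour and at 31.1, 47.6, 29.7 and 33.6 without. C1qb was at 105, 96.5 and 79.4 against 20.9, 32.1, 18.6 and 20, and C1qc at 105, 100 and 84.2 against 19.4, 31.8, 20.2 and 19.6. The 3 chains moved together, 3.39-fold, 4.03-fold and 4.17-fold (limma adjusted p from 3.14e-06 to 4.8e-06), and in each the highest tumour-free library was replicate 2. C4b, the mouse C4 gene expressed by astrocytes and oligodendrocytes, was at 453, 387 and 406 against 91.9, 158, 175 and 146 (2.97-fold, limma adjusted p = 0.00018). All told 5 of 6 classical genes rose, all 4 tested receptors (C3ar1, C5ar1, Itgam and Itgb2) and 1 of 6 regulators. C3, on which the pathways converge, did not pass, at 26.7 to 27.6 against 17 to 27.5 (limma adjusted p = 0.627), and 0 of 3 alternative pathway and effector genes did.

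Of 22 class I genes 1 was called, where 2.92% of all genes rose. It was the light chain B2m, at 173, 181 and 159 against 119, 119, 80.5 and 92 (1.68-fold, limma adjusted p = 0.00378). Without tumour-free replicate 1 the list had 3 calls. The heavy chain H2-K1 overlapped, at 39.3 to 59.8 against 20.7 to 46.9. H2-D1 varied from 31.9 to 232 within the tumour-free group alone. The H2 heavy chains are near-identical copies and polymorphic between strains, so their reads may be split between genes. None of 8 tested class II genes passed, with a median log2 difference of 0.63 and the invariant chain Cd74 at 13.4, 14.5 and 16.3 against 12.3, 15, 4.59 and 7.28 (limma adjusted p = 0.335). Tumour-free replicates 1 and 2 were at the tumour-bearing level of Cd74 and replicates 3 and 4 below it.

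Of 23 chemokine and cytokine genes 13 rose and 0 fell, 10 of 13 chemokines and 3 of 10 cytokines. Beside Ccl12, Ccl8, a monocyte chemoattractant, went from 0, 0.115, 0 and 0 to 1.67, 2.87 and 1.86 (limma adjusted p = 9.37e-05), and Ccl3, made by activated microglia, from 0.183, 0.0768, 0.553 and 0.165 to 2.82, 1.68 and 1.18 (0.000982). The inflammatory cytokine Il1b was at 5.57, 4.58 and 2.69 against 0.916, 0.939, 0.439 and 0.458 (3.07-fold, limma adjusted p = 0.00153). Most of these levels were low. With genes required to reach 5 in at least 3 libraries 11 members were tested and 3 called, and without tumour-free replicate 1 the list had 13 higher and 2 lower calls. Tgfb1, an abundant member, rose 2.08-fold, from 9.65 to 12.5 up to 20.9 to 26.3 (limma adjusted p = 0.000124).

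Genes downstream of cytokine receptors rose at several steps. Osmr, the oncostatin M receptor, was at 7.22, 8.3 and 5.86 against 1.68, 2.71, 2.44 and 1.62 (2.62-fold, limma adjusted p = 0.000103). Stat3, the transcription factor it activates, was at 212, 195 and 182 against 119, 140, 128 and 119 (1.55-fold, limma adjusted p = 0.000291). Socs3, which STAT3 induces and which then shuts the receptor down, was at 34.7, 27.9 and 17.2 against 5.58, 3.48, 4.69 and 5.28 (4.66-fold, limma adjusted p = 2.69e-05). Receptor, transcription factor and feedback inhibitor each stood higher in every tumour-bearing library. In the list of 22 STAT3 and feedback genes 6 rose and 0 fell, the others being Bcl3 (3.62-fold), Cebpd (2.73-fold, adjusted p from 0.00126 to 0.0593 over 26 settings, the highest without tumour-bearing replicate 1) and Il1r1 (1.62-fold). With a voom fit on recovered reads 10 passed. The immediate early gene Junb, also in this list, was at 25.7 to 33.4 against 12.6, 51.4, 46.7 and 46.8, so its tumour-free values bracketed the tumour-bearing ones.

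Interferon-stimulated genes rose in part. Of 40 tested, 14 rose and 0 fell, with a median log2 difference of 0.34, and 9 rose without tumour-bearing replicate 1. Ifi27l2a, an interferon-induced membrane protein, was at 11.4, 13.2 and 8.52 against 4.24, 2.67, 2.35 and 4.09 (2.79-fold, limma adjusted p = 0.000364). Ifi44 was at 5.06, 5.2 and 3.35 against 1.63, 0.616, 0.633 and 1.36 (2.72-fold, limma adjusted p = 0.00119), and Trim30a, a TRIM family protein, at 19.4, 21.9 and 14.3 against 8.01, 5.73, 6.23 and 6.03 (2.58-fold, limma adjusted p = 0.000857). Antiviral effectors held most calls, 10 of 23. Among the transcription factors Irf7, Irf8 and Irf9 rose, Irf8 (2.96-fold) being at the same time a factor that microglia require. Isg15, the ubiquitin-like modifier, did not pass, at 2.91 to 3.71 against 1.5 to 2.72 (limma adjusted p = 0.201). Of 11 tested interferon-induced GTPases 1 rose, Irgm1 at 8.6 to 9.01 against 5.36 to 6.95 (1.42-fold). Cxcl10, a chemokine induced by interferon, rose 2.1-fold, from 0.229 to 0.495 up to 1.61 to 1.92, and rose by less than in forebrain.

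Among immune checkpoint genes 9 of 15 rose and 0 fell. Lag3, a receptor that on T cells binds class II molecules, was at 10.6, 10.9 and 6.77 with tumour and at 1.27, 1.65, 0.948 and 1.46 without (4.42-fold, limma adjusted p = 1.08e-05). It was the gene of this list with the largest increase, in libraries in which Cd3e and Cd3g were at or near 0. Cd86, the costimulatory ligand of phagocytes, was at 6.37, 7.63 and 5.32 against 1.12, 1.73, 2.3 and 1.86 (2.71-fold, limma adjusted p = 0.000183), and the galectin Lgals9 at 14.5, 15 and 11.4 against 5.24, 7.21, 6.67 and 5.36 (2.06-fold, limma adjusted p = 0.000496). Cd274, which encodes PD-L1, was not called, at 1.21 to 1.36 with tumour against 1.53 to 1.76 without.

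Genes of reactive astrocytes gave the highest share of calls in the plot of list shares, 20 of 28 higher and 0 lower, with 20 again without tumour-free replicate 1 and 13 of 20 with genes required to reach 5. Their summed level was 1830 to 2330 with tumour and 792 to 1210 without. Gfap, the intermediate filament of reactive astrocytes, was at 1050, 1090 and 745 against 267, 522, 414 and 282 (2.65-fold, limma adjusted p = 0.00436). Vim, a second filament gene of reactive glia, was at 171, 240 and 135 against 82.1, 94.6, 62 and 61.7 (2.38-fold, limma adjusted p = 0.00388). Both filament genes had no overlap, with tumour-bearing replicate 3 the lowest of its group. Cd44, the hyaluronan receptor, was at 16.3, 22.4 and 14 against 7.43, 7.63, 7.7 and 6.18 (2.22-fold, limma adjusted p = 8.03e-05). By role, 9 of 10 filament and surface genes, 6 of 9 secreted and defence genes and 5 of 9 signalling and stress genes rose.

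Among the secreted and defence genes of reactive astrocytes, Lcn2, the iron-siderophore carrier lipocalin 2, was at 13.4, 10.2 and 9.15 against 1.7, 5.83, 1.4 and 1.46 (3.65-fold, limma adjusted p = 0.00159). Tumour-free replicate 2 stood above its group and still below each tumour-bearing library. Timp1, an inhibitor of matrix metalloproteinases, was at 7.24, 6.3 and 4.17 against 0.899, 1.51, 0.705 and 1.1 (3.33-fold, limma adjusted p = 2.64e-05). Aspg, an asparaginase, was at 10.7, 10 and 8.27 against 1.69, 2.28, 2.53 and 2.57 (3.27-fold, limma adjusted p = 6.1e-06). Serpina3n, a serine protease inhibitor, was at 91.6, 63.9 and 54.4 against 27.4, 41.2, 37.7 and 31.9 (1.97-fold, limma adjusted p = 0.0106), and its call was lost without tumour-bearing replicate 1 (adjusted p from 0.00628 to 0.0639 over 26 settings). S1pr3, a sphingosine-1-phosphate receptor of reactive astrocytes, was at 4.26, 4.77 and 4.17 against 1.64, 1.65, 1.55 and 1.52 (2.08-fold, limma adjusted p = 4.73e-06). Its tumour-free libraries differed little from each other, and the tumour-bearing ones lay well above them.

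Homeostatic astrocyte genes did not pass in either direction. Of 22 tested, 0 were called, the median log2 difference was 0.02 and the summed level was 18000 to 20300 with tumour and 17200 to 20000 without. The glutamate transporter Slc1a2 was at 6650, 6940 and 6500 against 5670, 7160, 8450 and 7510 (limma adjusted p = 0.796), and glutamine synthetase, Glul, at 5290, 3860 and 3920 against 3570, 4640, 4410 and 4320 (0.944). In both genes the groups overlapped. The water channel Aqp4 did not overlap, at 166, 206 and 158 against 136, 121, 142 and 123, but its 1.35-fold difference did not pass (limma adjusted p = 0.113). Among Bergmann glia genes, those of the radial astrocytes of the cerebellum, 1 of 9 rose, the fatty acid binding protein Fabp7, at 98, 138 and 122 against 81.3, 72.9, 55.6 and 53 (1.82-fold, limma adjusted p = 0.00462). Fabp7 is also made by other astrocytes and by forebrain glia, where it was higher too (log2 difference 1.05).

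Cell cycle genes of the mouse were higher. Of 30, 15 rose and 0 fell, and with either tumour-bearing replicate 1 or 2 left out 8 did. With genes required to reach 5 in at least 3 libraries, 7 were tested and 3 called. Top2a, the topoisomerase of dividing cells, was at 11.2, 11.1 and 9 with tumour and at 1.4, 2.12, 1.51 and 0.629 without (4.84-fold, limma adjusted p = 1.37e-05). Mki67, which encodes the proliferation antigen Ki-67, was at 2.32, 2.44 and 1.86 against 0.277, 0.409, 0.228 and 0.19 (2.51-fold, limma adjusted p = 1.37e-05). Both were low without tumour and similar among the 3 tumour-bearing libraries. Mitotic genes held 11 of 20 calls, among them the spindle checkpoint kinase Bub1b (2.39-fold), and DNA replication genes 4 of 10, among them the ribonucleotide reductase subunit Rrm2 (2.03-fold). Reads from human tumour RNA counted in the mouse table could raise such genes. At the rate seen in the monolayer cells they were expected to make up 0.00246% of the mouse reads of tumour-bearing hindbrain, and no tested gene was expected to hold 10% or more of its reads from them. That rate was taken over from cultured cells, and the part of such reads in these calls was not tested.

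Of 25 endothelial and barrier genes 0 were called, with a summed level of 1610 to 1640 with tumour and 1500 to 1740 without, and the tight junction gene Cldn5 was at 15.5, 21 and 15.6 against 14.6, 17.1, 6.81 and 9.02 (limma adjusted p = 0.346). Pericyte and smooth muscle genes gave 0 of 16. Genes of activated endothelium gave 8 of 17 higher, and 3 of 10 with genes required to reach 5. Selp, the P-selectin that captures rolling leukocytes, was at 4.05, 4.57 and 2.75 against 0, 0.192, 0.132 and 0.138 (4.25-fold, limma adjusted p = 1.91e-06). Lrg1, a secreted glycoprotein of activated vessels, was at 6.92, 7.52 and 5.57 against 0.467, 2.4, 1.3 and 1.07 (3.45-fold, limma adjusted p = 0.000195). In both genes every tumour-bearing library stood above every tumour-free one. The adhesion ligand Icam1 rose 1.76-fold, from 1.41 to 2.29 up to 3.33 to 4.62, but was lost without tumour-bearing replicate 1 (adjusted p from 0.00328 to 0.0555 over 25 settings). Vcam1 overlapped, at 17.6 to 19.2 against 16.2 to 19.7, with a log2 difference of 0.04 (SE 0.11).

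Among the 38 tested genes of the fibroblast and matrix list 2 were called, where 2.92% of all genes rose. They were the paired chains of basement membrane collagen, which lie head to head and share a promoter. Col4a1 was at 109, 138 and 117 against 48.7, 65.9, 46.4 and 45.7 (2.34-fold, limma adjusted p = 0.000197), and Col4a2 at 63.9, 74.4 and 68.7 against 36.5, 44.8, 42.1 and 41.1 (1.66-fold, limma adjusted p = 0.00121). Both chains stood higher in each tumour-bearing library. None of 17 fibrillar and fibroblast genes passed, and the fibrillar collagen Col1a1 overlapped, at 41.3 to 72.7 against 53.8 to 105. Of 18 matrix proteases and inhibitors 3 rose, among them Timp1 and the urokinase receptor gene Plaur, at 1.09 to 1.82 against 0.241 to 0.52 (1.71-fold, limma adjusted p = 0.00473).

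**Figure D2:**
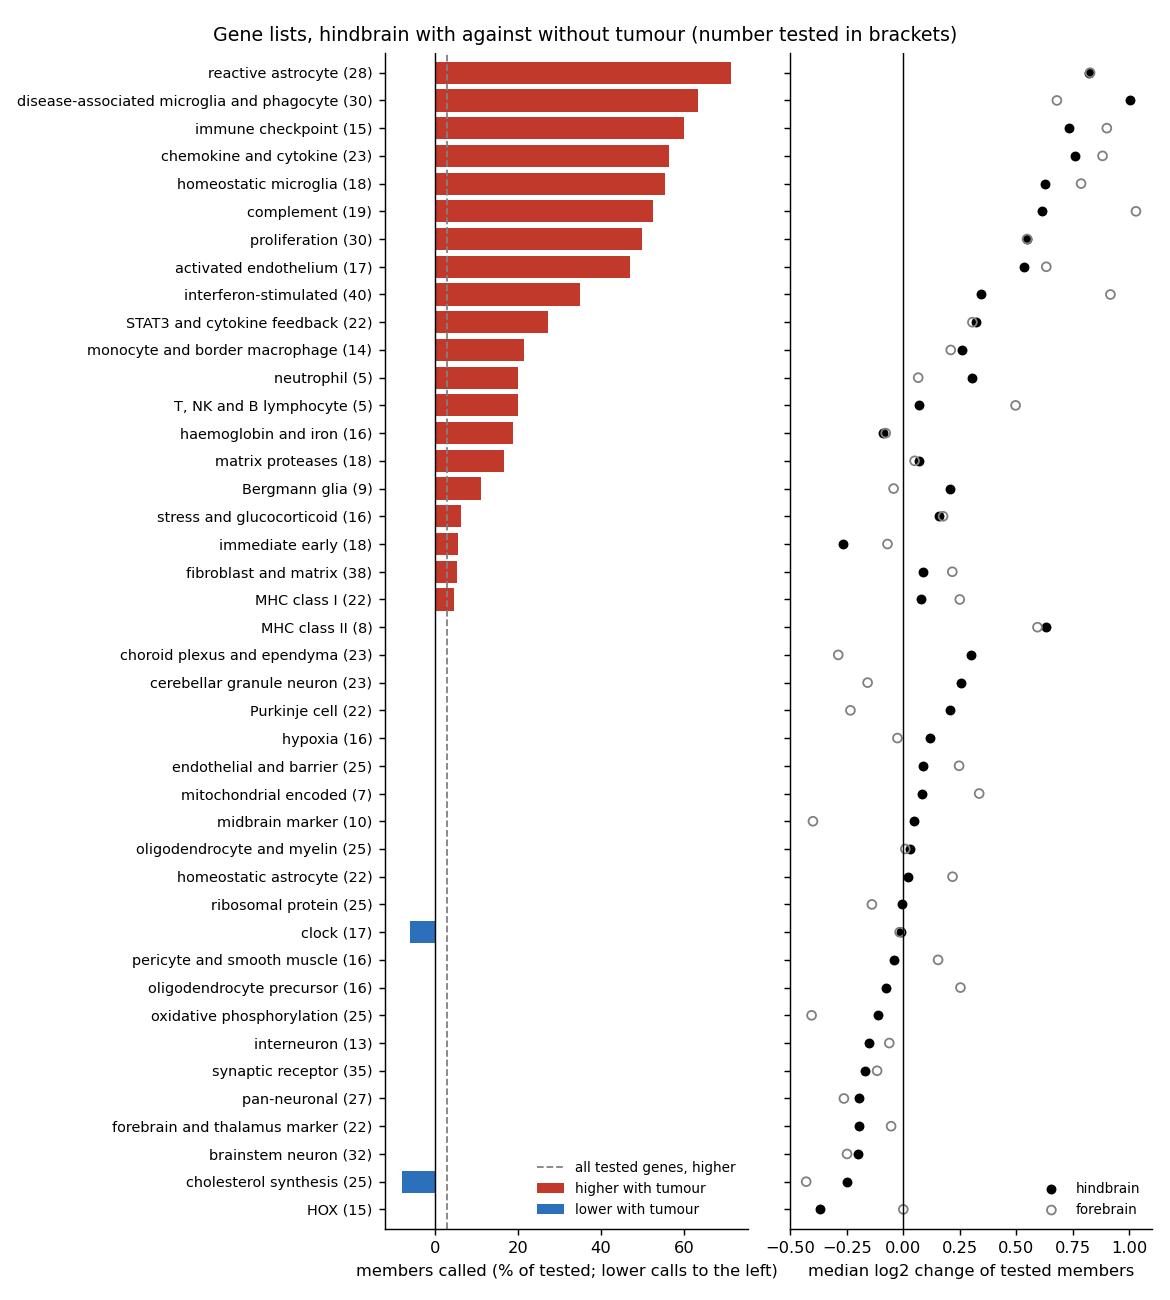
For each gene list, the left panel gives the share of tested members called higher (red, to the right) or lower (blue, to the left) in tumour-bearing hindbrain, with a dashed line at the 2.92% of all tested genes called higher; the right panel gives the median log2 difference in hindbrain (filled) and forebrain (open). Reactive astrocyte genes lead with 20 of 28, and 2 lists, cholesterol synthesis and clock, have lower calls.

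Neuronal lists had no call in the full fit, and tumour-free replicate 1 bore on several of them. Of 27 pan-neuronal genes 0 were called, yet none had a log2 difference above 0, and the median was -0.20. The synaptic protein Snap25 was at 1020, 1040 and 1190 against 1190, 1170, 1510 and 1170, and the medium neurofilament Nefm at 291, 250 and 298 against 323, 336, 412 and 315. The Nefm groups did not overlap, but its difference of -0.30 did not pass (limma adjusted p = 0.125). The summed pan-neuronal level was 14200 to 16400 with tumour and 16500 to 18500 without, so the sums did not overlap either. The 35 synaptic receptor genes and 13 interneuron genes had no call either, with medians of -0.17 and -0.15. Without tumour-free replicate 1, 2 pan-neuronal genes and 1 interneuron gene were called lower, and of the synaptic receptor genes 2 were called higher and 2 lower.

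Cerebellar genes leaned the other way. Of 23 granule cell genes 19 had a difference above 0 and of 22 Purkinje cell genes 20, with 0 called in each. Gabra6 was at 145, 216 and 121 with tumour and at 187, 80.7, 79.6 and 117 without, and the Purkinje cell gene Pcp2 at 324, 373 and 295 against 414, 235, 128 and 269. In both genes tumour-free replicate 1 was among or above the tumour-bearing libraries and replicates 2, 3 and 4 were below them. Without replicate 1, 3 granule cell and 4 Purkinje cell genes were called higher. Of 32 brainstem neuron genes 29 had a difference of 0 or less and 0 were called. Glra1, the glycine receptor subunit of brainstem and spinal neurons, was at 38.3, 48.1 and 61.5 against 51.5, 69, 78.2 and 50.4 (limma adjusted p = 0.436). All 15 tested HOX genes had a difference at or under 0, with a median of -0.37, and their summed level was 56.1, 81.7 and 84.3 with tumour and 94.6, 152, 173 and 73 without. Tumour-free replicates 2 and 3 were the highest of the HOX sums, and replicate 4 lay inside the tumour-bearing range. Without replicate 4, 3 HOX genes and 2 brainstem genes were called lower. The cerebellar and HOX sums thus varied within the tumour-free group by amounts as large as those between groups. The share of cerebellum and caudal brainstem in each dissected piece moves with these genes, and its part in the results was not tested.

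**Figure D3:**
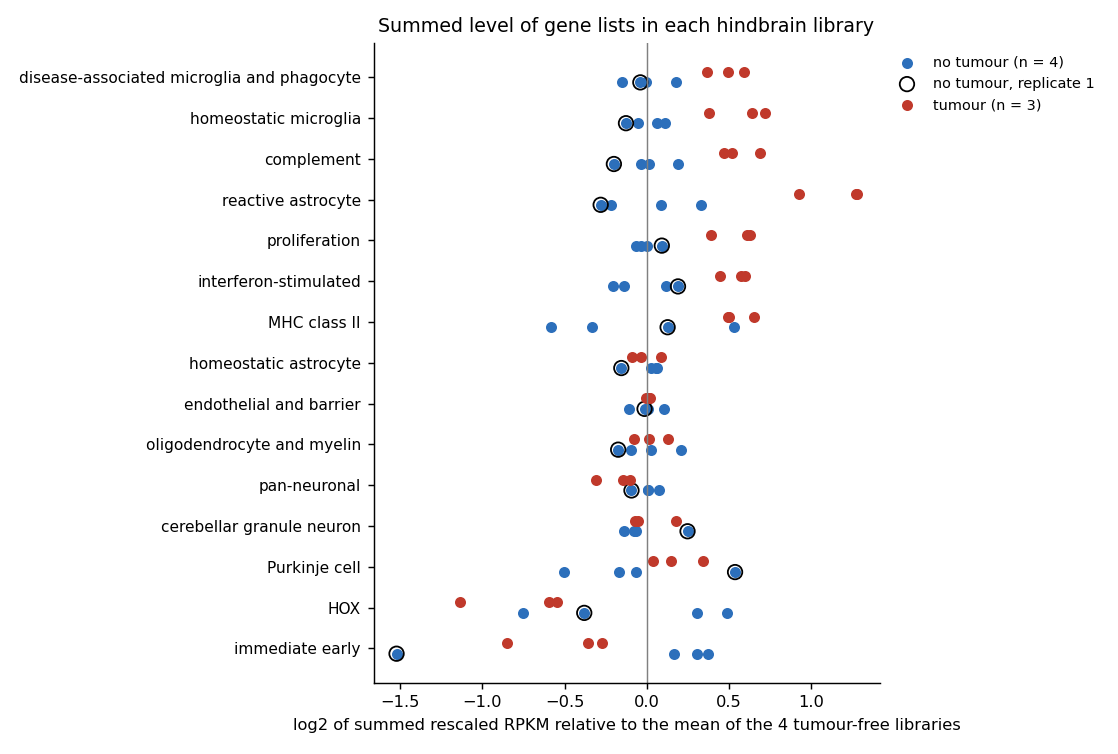
Summed rescaled RPKM of 15 gene lists in each hindbrain library, as log2 relative to the mean of the 4 tumour-free libraries (blue; replicate 1 ringed) with the 3 tumour-bearing libraries in red; abundant members weigh most in a sum. The reactive astrocyte and microglial sums of the tumour-bearing libraries are clear of the tumour-free ones, while those of Purkinje cells, HOX and immediate early genes spread widely within the tumour-free group, from 114 to 424 for the last of these.

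Of 25 oligodendrocyte genes 0 were called, with a median of 0.03, and myelin basic protein, Mbp, was at 4460, 3620 and 3660 against 3340, 4070, 4160 and 3460. Oligodendrocyte precursor genes gave 0 of 16. Choroid plexus and ependymal genes gave 0 of 23, with a wide spread, the transport protein Ttr being at 794, 1850 and 825 against 765, 358, 924 and 736.

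Of the 52 lower calls, 3 reached 2-fold, and the largest fall was that of Capn11. Capn11, a member of the calpain protease family, was at 0.87, 2.27 and 1.11 with tumour and at 10.8, 11, 8.76 and 7.55 without. Its fall of 4.44-fold (limma adjusted p = 4.34e-05) was found under each of the 26 alternative settings, and forebrain gave 0.322, 1.49 and 0.603 against 5.83, 7.51, 6.36 and 4.93. Capn11 was therefore low in all 6 tumour-bearing brain libraries and in none of the 8 tumour-free ones. Edn3, the peptide endothelin 3, fell in both regions as well, in hindbrain from 6.39, 6.86, 5.67 and 5.48 to 3.62, 3.54 and 3.95 (1.51-fold, limma adjusted p = 0.00169), with a log2 difference of -0.59 against -0.65 in forebrain. The growth factor Fgf10 fell 1.37-fold at an adjusted p of 0.0457 and was called under 11 of 26 settings.

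A second group of lower calls carried high levels in forebrain. Of the 52 genes, 21 (40.4%) were at 2-fold or more higher levels in tumour-free forebrain than in tumour-free hindbrain, against 6.05% of all tested genes, and for 17 of those 21 replicate 1 was the lowest tumour-free hindbrain library, as it was for 603 of the 954 such genes among all tested. Kcnh3, a potassium channel of forebrain neurons, was at 0.694, 0.67 and 1.04 with tumour, at 1.15, 5.48, 6.27 and 4.46 in tumour-free hindbrain and at 40.1 to 48.1 in tumour-free forebrain. Kalrn, a guanine exchange factor of dendritic spines, was at 15.4, 16.3 and 17.9 against 17.5, 40, 41.9 and 31.7, with 165 to 200 in tumour-free forebrain. In both, replicates 2, 3 and 4 of tumour-free hindbrain were high and replicate 1 was at or beside the tumour-bearing level. These 3 replicates are the ones that held Tbr1 at 6.51 to 13.4. Vipr1, a receptor for vasoactive intestinal peptide (fall of 1.61-fold, limma adjusted p = 0.0167), Epha4, an ephrin receptor (1.47-fold, 0.0238), and Camk2n1, an inhibitor of CaM kinase II (1.46-fold, 0.0277), were likewise 3-fold or more higher in forebrain. Forebrain RNA in tumour-free replicates 2 to 4 moves with these calls, and its part in them was not tested. Without replicate 1 the fit gave 273 lower calls in place of 52 and 531 higher in place of 460, and 6 of 22 forebrain and thalamus genes were called lower in place of 0.

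**Figure D4:**
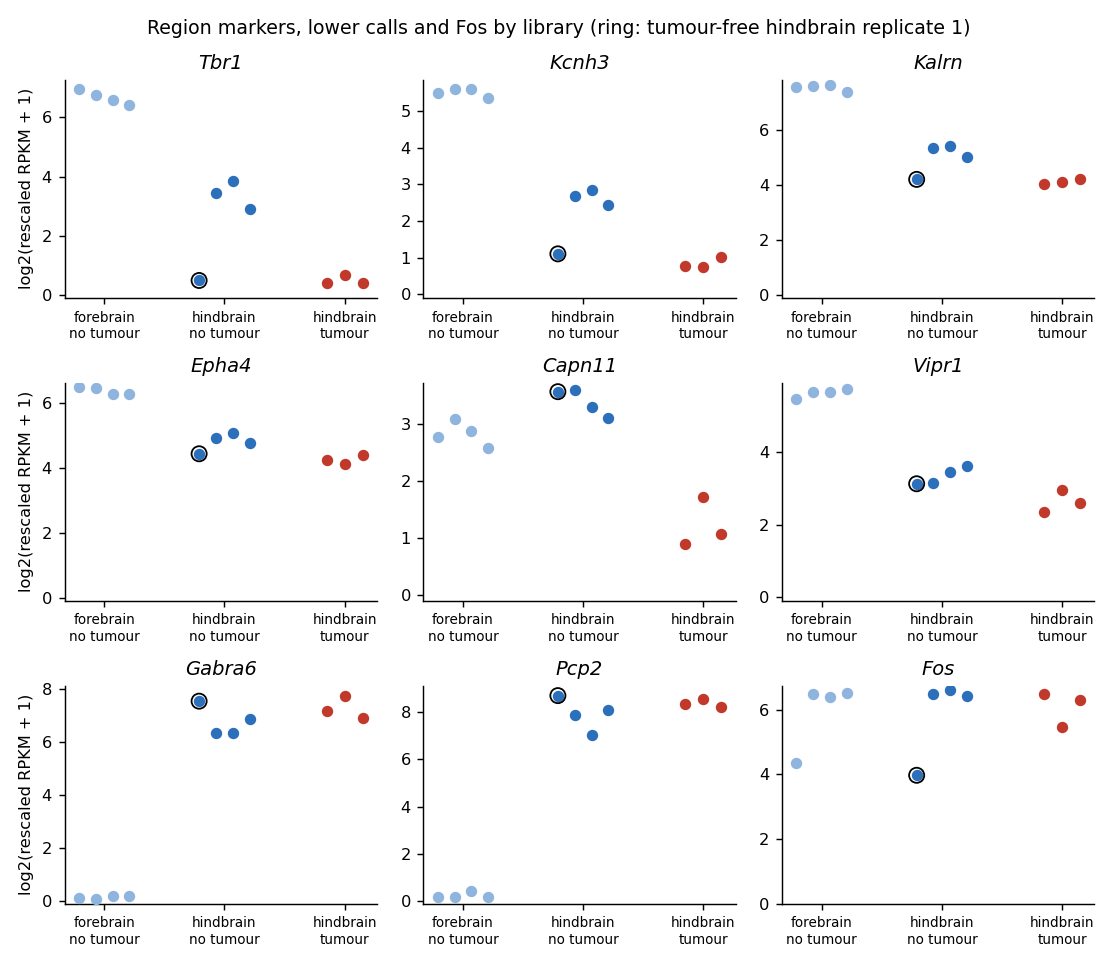
Values as log2(rescaled RPKM + 1) of 9 genes in tumour-free forebrain (4 libraries), tumour-free hindbrain (4, replicate 1 ringed) and tumour-bearing hindbrain (3). For Tbr1, Kcnh3 and Kalrn the ringed library sits with the tumour-bearing ones and the other 3 stand toward the forebrain, whereas for Capn11 all 4 tumour-free hindbrain libraries stand above the tumour-bearing range.

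Of 25 cholesterol synthesis genes 2 fell, Nsdhl, a sterol dehydrogenase, at 26.8, 24.3 and 31.6 against 33.6, 37.4, 40 and 35.4 (limma adjusted p = 0.0293), and Dhcr7, the last enzyme of the pathway, at 75.4, 88.4 and 87.9 against 113, 110, 107 and 98.8 (0.0283). Neither call is firm, since the list had 0 lower calls with the 7 hindbrain libraries alone and without tumour-free replicate 2 or 3 or tumour-bearing replicate 1 or 2. The groups did not overlap in the lower direction for 11 of the 25, against 5.5% of all tested genes. In the clock list the transcription factor Hlf fell, from 129, 138, 136 and 124 to 108, 101 and 98.6 (1.28-fold, limma adjusted p = 0.005). Nuclear oxidative phosphorylation genes (0 of 25), ribosomal protein genes (0 of 25), hypoxia genes (0 of 16) and mitochondrially encoded genes (0 of 7) had no call, where 3.25% of all genes did.

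Of 10 iron handling genes 3 rose, and of 16 stress genes 1, where 2.92% of all genes did. Hmox1, the haem-degrading enzyme haem oxygenase 1, was at 60.5, 44.1 and 28.1 with tumour and at 12.9, 11.6, 11.1 and 11 without (3.42-fold, limma adjusted p = 0.000385). The tumour-free libraries were nearly equal and the tumour-bearing ones differed widely among themselves. Slc11a1, an iron and manganese transporter of phagocyte lysosomes, rose 2.36-fold, from 3.19 to 4.21 up to 8.27 to 11.4. The haemoglobin genes, which mark blood left in the piece, had a log2 difference below 0 in all 6 tested, none of them called, Hbb-bs being at 122, 77.9 and 225 against 432, 919, 207 and 114. Cdkn1a, the p21 inhibitor of the cell cycle, was at 39.4, 39.7 and 34.3 against 15.2, 23.3, 24.2 and 21.1 (1.79-fold, limma adjusted p = 0.00275). Among immediate early genes Atf3, a stress-induced transcription factor, rose 1.96-fold (limma adjusted p = 0.00629). Fos, the classic activity gene, was at 88.8, 43.6 and 78.4 against 14.7, 88.7, 97.1 and 85.6, so that tumour-free replicate 1 alone was low. Without it 4 immediate early genes were called lower with tumour.

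The hindbrain response was then set beside that of the forebrain, where 3 tumour-bearing and 4 tumour-free libraries gave 4793 calls (30.4% of the same genes), 2265 higher (14.4%) and 2528 lower (16.0%). Of the 512 hindbrain calls 433 were also called in forebrain, which is 84.6% of the hindbrain calls and 9.03% of the forebrain calls, and 431 of them had the same direction. The difference between the regions' log2 changes was itself called for 72 genes (0.456%), 32 with the larger value in hindbrain (0.203%) and 40 with the smaller (0.254%). That count went from 12, without tumour-bearing hindbrain replicate 1, to 343, without tumour-free hindbrain replicate 1, when single libraries were left out. For 67 of these the hindbrain alone showed no call. Only 5 hindbrain calls carried a region call. They were Gpnmb, S1pr3, Aloxe3 and Tdo2 with the larger and Cxcl10 with the smaller value in hindbrain. None of the 79 genes called in hindbrain and not in forebrain had a called region difference, so these 79 were not shown to differ between regions.

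S1pr3 was at 4.17 to 4.77 with tumour in hindbrain, and its log2 difference of 1.06 exceeded the 0.43 of forebrain by 0.63 (limma adjusted p = 0.0365). Aloxe3, a lipoxygenase-family enzyme, went in opposite directions. It was at 9.03, 8.54 and 9.33 against 7.34, 5.69, 5.55 and 5.41 in hindbrain and at 6.73, 6.19 and 5.47 against 6.7, 9.18, 8.98 and 8.07 in forebrain. The change was an increase of 0.52 (limma adjusted p = 0.0201) in the first and a decrease in the second (log2 difference -0.37, limma adjusted p = 0.027). Tdo2, the tryptophan-degrading dioxygenase, chosen after its values were seen, behaved likewise, at 3.12, 2.87 and 2.28 against 1.92, 0.778, 1.44 and 1.39 in hindbrain and at 0.207 to 0.366 against 0.579 to 1.01 in forebrain (log2 differences of 0.67 and -0.51). Cxcl10 had a log2 difference of 1.07 in hindbrain and 1.97 in forebrain (limma adjusted p = 0.0365 for the difference of -0.90).

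Most other region calls rested on forebrain changes. The hypothalamic neuropeptide genes Pmch and Hcrt, under 1.6 in every hindbrain library, were lower in tumour-bearing forebrain by 5.51 and 3.87 on the log2 scale. Forebrain pieces differed in other region markers too. Midbrain genes summed to 15.3, 7.27 and 4.75 with tumour and to 20.6, 21.6, 19.1 and 19.0 without. Choroid plexus genes summed to 37.9 to 1310 against 305 to 941, while forebrain and thalamus markers overlapped, at 1270 to 1580 against 1300 to 1500. The share of each region in the forebrain pieces, and its part in the region calls, was not tested. A2m, the protease inhibitor alpha-2-macroglobulin, was at 38.2, 45.5 and 39.8 against 29.8, 27.6, 23.2 and 26.3 in hindbrain, a difference that did not pass (limma adjusted p = 0.103), and at 22, 16.3 and 11.4 against 2.18, 3.92, 3.41 and 3.49 in forebrain. Hindbrain without tumour already held more A2m than tumour-bearing forebrain. Col6a1, a chain of collagen VI, had log2 differences of -0.42 in hindbrain and 1.01 in forebrain (limma adjusted p = 0.0336 for their difference). For basement membrane genes 9 of 10 rose in forebrain and 2 of 10 in hindbrain, and for interferon-stimulated genes 29 and 14 of 40. The region difference was called for 0 genes in each of these lists, so the unequal counts do not show unequal changes of single genes. Oxidative phosphorylation genes fell in forebrain (22 of 25 called) and cholesterol synthesis genes too (17 of 25), with no region call in either list.

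**Figure D5:**
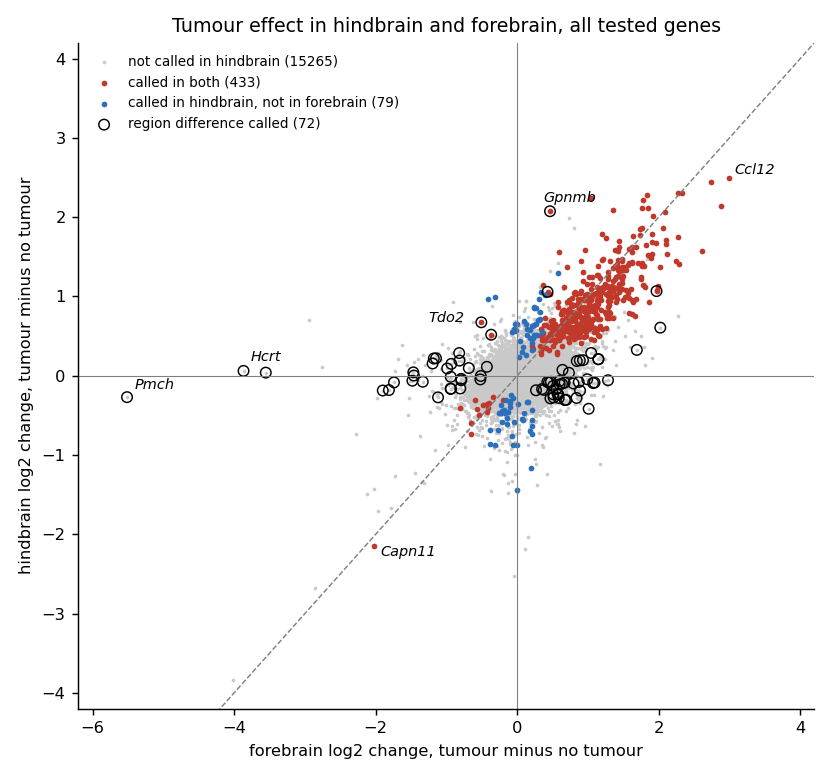
Log2 change with tumour in hindbrain (vertical) against forebrain (horizontal) for the 15777 tested genes, coloured by call, with the 72 called region differences ringed and a dashed line of equal change. Most of the 433 shared calls lie near the line in the upper right, Gpnmb lies far above it, and the rings at the left, such as Pmch, sit at a hindbrain change near 0.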

How the data were processed

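Mouse brain libraries, 14 in all and 7 of them hindbrain, were analysed from the deposited RPKM table of mouse genes. Reads had been assigned to human and mouse genes in separate tables by the authors, with builds mm10, GRCm38, hg38 and GRCh38 per the submitters' processing notes. No source used here names the aligner or counter. RPKM values were rescaled to a sum of 1000000 per library, since deposited sums differ with the mix of transcript lengths. Genes at 1 or more in at least 3 of the 14 libraries were kept, and log2(value + 1) was fitted by group with limma 3.58.1 (R 4.3.3; trend and robust variance, 10 residual degrees of freedom). Benjamini-Hochberg adjustment ran over all 15777 genes. Whole reads were recovered from the steps of the RPKM values for 32644 of 32644 mouse genes, 99.9983% of values being whole within 0.02 reads, and gave depths and the voom alternative.

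Genes named by rule are the 10 largest non-overlapping calls in each direction with a mean of at least 5, up to 4 called members of each list with a mean of at least 1 or its 2 most abundant members where fewer than 2 were called, the 8 largest region differences in each direction, and 11 fixed markers. The comparison, the gene lists and the rule were chosen with earlier results of these data known. Among the genes printed, these were chosen after their values were seen: Apoe, Spp1, Lgals3, Ctss, Fcgr3, Fcer1g, P2ry12, Sall1, Ly6c2, C3, C5ar1, Itgam, H2-K1, Tgfb1, Cxcl10, Stat3, Il1r1, Isg15, Irf8, Irf9, Irgm1, Cd274, Rrm2, Vcam1, Tbr1, Kcnh3, Kalrn, Tdo2 and all genes of the other observations.

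Counts of 15387 genes were simulated for the hindbrain comparison, drawn independently with 1 dispersion of 0.0055 for all genes. On these the fit recovered 90% of genes changed 1.5-fold, 98% at 2-fold and 97.9% at 0.5-fold. Of 199 calls 8 were false. The simulated replicates had no outlying library, no pairing and no differences in dissected region. These rates therefore do not measure recovery or false calls in the real libraries. Same-numbered tumour-bearing forebrain and hindbrain libraries deviated together (r from 0.238 to 0.437, other numbers -0.32 to -0.04). Same-numbered hindbrain libraries with and without tumour did not (-0.203 to 0.04). Tumour-free forebrain and hindbrain libraries gave -0.058 to 0.365 for the same number and -0.285 to 0.284 for other numbers. The titles give only replicate numbers, and so few libraries cannot settle whether the numbers pair them. A block for such a pairing within tumour status is one of the alternatives. All p-values printed for region differences come from the fit without that block, which treats the libraries as independent. Mouse sequences were not used here, and some genes are not reported here.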

Additional observations from a re-analysis of the deposited data

Results flagged for a closer look

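Dixon's test at its 95% limit set 1 of 4 libraries apart from the other 3 for 21 of the 230 genes screened. All 21 cases were in tumour-free hindbrain. Chance gives about 1 in 20 for genes picked without regard to their values. Some of the genes screened were chosen after their values were seen, so the count is not a test of an excess. Tumour-free replicate 2 was high for Itgax (0.535 rescaled RPKM, others 0.239 to 0.287), Lcn2 (5.83, others 1.4 to 1.7), Olfml3 (9.26, others 4.91 to 5.64), C1qc (31.8, others 19.4 to 20.2), Itgb2 (3.1, others 2.13 to 2.28) and Laptm5 (100, others 68.3 to 71.9). It was also high for Ccl8 (0.115, others 0), Col4a1 (65.9, others 45.7 to 48.7), Vwf (33.7, others 14.2 to 16) and Spock2 (532, others 482 to 488). Tumour-free replicate 1 was low for Fos (14.7, others 85.6 to 97.1) and Junb (12.6, others 46.7 to 51.4) and high for Aloxe3 (7.34, others 5.41 to 5.69) and Cd48 (1.4, others 0.781 to 0.861). Tumour-free replicate 3 was high for P2ry12 (23.7, others 14.3 to 15.3), Snap25 (1510, others 1170 to 1190), Hmgcs1 (174, others 133 to 139), Slc11a1 (4.21, others 3.19 to 3.34) and Htr1b (9.33, others 8.14 to 8.28). It was low for Atp5b (2300, others 2590 to 2630) and at 0 for Hcrt (others 0.107 to 0.128).

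A called difference between the hindbrain and the forebrain log2 change was found for 26 of the genes screened. Signed log2 changes are compared, so a fall in forebrain alone, as for Pmch and Hcrt, counts as a larger value in hindbrain. The signed value was larger in hindbrain for Gpnmb (by 1.611, limma adjusted p = 0.00431), Tdo2 (1.18, 0.0336), Aloxe3 (0.885, 0.0336) and S1pr3 (0.629, 0.0365), all called in hindbrain. It was also larger for Pmch (5.242), Hcrt (3.927), Avp (3.591), Slc17a6 (1.632), Calb2 (1.51), Dcn (1.396), Ntng1 (0.845), Myh6 (0.78) and Stmn2 (0.511), none of them called in hindbrain. It was smaller in hindbrain for Col6a1 (-1.426), A2m (-1.415), the glycolytic enzyme Hk2 (-1.365), Lrp4 (-0.997), Cxcl10 (-0.902), Ighm (-0.788), Spata13 (-0.758), Cep250 (-0.721), Htr1b (-0.71), Tln1 (-0.692), Bzrap1 (-0.638), Lzts3 (-0.555) and the glutamate receptor Grm3 (-0.519). Of these only Cxcl10 was called in hindbrain.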

How the results depend on the processing

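Of 119 named genes called in the hindbrain, 84 were called under every alternative in which they were tested. With genes required to reach 5, only 88 of the 119 were tested with the same direction, and 85 were still called. The others were mostly left out by the filter. No call reversed, but the medians of some lists with few calls changed sign. That of neutrophil genes went from 0.304 to -0.175 without tumour-bearing replicate 3. The 512 hindbrain calls became 294 with genes required to reach 5, where fewer genes are tested, and 853 without replicate 1 of both tumour-free groups. Leaving out 1 library gave 291 to 804, the lowest without tumour-bearing replicate 2 and the highest without tumour-free replicate 1, and 324 without tumour-bearing replicate 1. The 52 lower calls became 8 with the 7 hindbrain libraries alone, 9 without tumour-bearing replicate 2 and 273 without tumour-free replicate 1. The 72 region calls became 30 with no filter, 129 with quantile normalization, 174 with voom and 631 without replicate 1 of both tumour-free groups, and 12 to 343 without 1 library. The causes of these shifts were not tested. A replicate block gave 473 hindbrain calls, 434 of them shared with the fit without it, and 90 region calls, and a block within tumour status gave 50 region calls. With the replicate block, class II genes went from 0 to 2 higher calls of 8 and class I genes from 1 to 3 of 22. Same-numbered hindbrain libraries with and without tumour share only a number. Under other scalings the median log2 difference of all genes lay between -0.0289 and 0.0104, against -0.014 as reported. Tumour-free libraries were the shallower ones, which limits low genes.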

Other observations

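Most of the leukocyte signalling genes picked outside the lists of the report rose. Both lists described here were put together after the calls had been seen and so do not support a direction. Of 43 tested genes of leukocyte signalling 36 rose and 0 fell, where 2.92% and 0.33% of all genes did, with a median log2 difference of 0.99 in hindbrain and 1.28 in forebrain. Spi1, the transcription factor PU.1 that macrophages and microglia depend on, was at 19.8, 18.2 and 13.7 with tumour and at 5.94, 6.1, 4.5 and 4.04 without (2.97-fold, limma adjusted p = 0.000117). Ptprc, the pan-leukocyte phosphatase CD45, was at 6.07, 6.88 and 5.56 against 1.7, 1.57, 2.07 and 1.4, and the pore-forming protein gene Mpeg1 at 38, 32.6 and 26.9 against 9.95, 11.1, 9.8 and 9.16. Groups did not overlap in any of the 3. All 10 tested kinases and phosphatases rose, 5 of 6 phagocyte oxidase genes and 6 of 10 pattern receptors, among them Tlr7 (log2 difference 1.24) and Cd14 (1.24). The oxidase subunit Cybb did not pass (limma adjusted p = 0.112).

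Protein folding genes of the endoplasmic reticulum showed small changes. Of 29, 7 rose and 0 fell in hindbrain, and 3 rose and 1 fell in forebrain, with no called region difference. Hspa5, the chaperone BiP, was at 989, 848 and 722 against 648, 630, 629 and 643 (log2 difference 0.41, limma adjusted p = 0.0296) and was called under 19 of 26 settings. Xbp1, a transcription factor of the unfolded protein response, was at 138, 128 and 108 against 95.5, 94.7, 84.7 and 91.4 (0.43, limma adjusted p = 0.00431) and was called under all 26. In both the groups did not overlap, and tumour-bearing replicate 3 was nearest the tumour-free libraries. The chaperone Canx did not pass, with a log2 difference of -0.04.

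Among lower calls, Gcg, which encodes the peptide GLP-1 and is expressed in a small group of caudal medullary neurons, was at 0.547, 1.12 and 0.647 against 2.56, 2.99, 1.26 and 1.4 (limma adjusted p = 0.0371). Its receptor Glp1r was at 1.23, 0.819 and 1.95 against 2.46, 2.98, 2.33 and 2.26 (limma adjusted p = 0.0291). The levels of Gcg in tumour-free replicates 3 and 4 were close to the highest tumour-bearing one. The apolipoprotein Apoc1 rose in hindbrain, from 6.73, 4.27, 6.44 and 7.04 to 12.5, 12.8 and 13.8 (limma adjusted p = 0.0138), with a log2 difference of 1.00 against -0.31 in forebrain. That region difference did not pass (limma adjusted p = 0.0651).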
